A study of Homo sapiens with 12 samples.

Results

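Replication-dependent histone genes encode the histones H1, H2A, H2B, H3 and H4 that package newly copied DNA. They were taken here as every gene named alone by a probe set whose symbol belongs to the H1-1 to H1-6 series or to the H2AC, H2BC, H3C or H4C series, with older HIST names counted as the same genes. The rule found 42 genes of the 19775 genes measured: 6 of type H1, 8 of type H2A, 13 of type H2B, 7 of type H3 and 8 of type H4. They rest on 48 probe sets. The reference annotation lists 69 such genes, of which 19 are covered only by probe sets that name several genes and 8 have no probe set here.

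The core histones H2A, H2B, H3 and H4 form the protein spool of the nucleosome, and the linker histone H1 binds the DNA between nucleosomes. Genes of this class are transcribed mainly in S phase, and most of their mRNAs end in a stem-loop rather than a poly(A) tail, although some of the genes also make polyadenylated transcripts. Histone supply is coupled to DNA replication, and the stem-loop is bound by SLBP, which accompanies the mRNA through processing, translation and decay. Most of the genes lie in clusters, and copies of the same type are so alike that array probes may not separate them.

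The study asked how myeloma cells that had become resistant to carfilzomib, an irreversible proteasome inhibitor, differed from the cells they came from. Both lines, KMS-11 and KMS-34, come from human multiple myeloma, a cancer of plasma cells, and carry the t(4;14) translocation. Each was profiled as parental cells and as a resistant derivative. KMS-11/Cfz and KMS-34/Cfz had been selected in 12 nM carfilzomib and were grown for 1 week without the drug before RNA was taken, and the parental cells had not been selected. The labels give 4% fetal bovine serum for all 4 groups, while the study's methods name a higher share. Each group had 3 arrays, 12 in all, and nothing says that the 3 came from separate cultures, so p-values measure only the spread between arrays. Each resistant derivative is 1 selected culture of 1 line. The values were log2 intensities set relative to a centre for each probe set, so they show differences between arrays and no expression level. For the same reason the plasma cell identity of the lines could not be checked by level.

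Arrays of the same group correlated at 0.904 to 0.949 in KMS-11 and KMS-11/Cfz and at 0.859 to 0.871 in KMS-34. In KMS-34/Cfz, replicates 2 and 3 correlated at 0.925, but replicate 1 correlated with them at only 0.811 and 0.759. Results for KMS-34/Cfz were therefore also computed without that array and are given below.

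To show the DNA that lies before the genes that fell in both derivatives, the last 140 bases before the transcription start are printed for the member of each histone type with the largest mean fall. They come from RefSeq on GRCh38.p14, which held a promoter for 40 of the 42 genes. Capitals mark a CCAAT box, a TATAAA box or the octamer ATTTGCAT, which POU factors read. All were searched on both strands, so that ATTGG is the reverse form of the first and ATGCAAAT that of the octamer.
H1-2, chr6:26056471-26056610, minus strand: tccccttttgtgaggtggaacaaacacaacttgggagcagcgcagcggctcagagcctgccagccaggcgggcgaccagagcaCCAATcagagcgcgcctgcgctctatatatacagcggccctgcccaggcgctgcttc
H2AC6, chr6:26124032-26124171, plus strand: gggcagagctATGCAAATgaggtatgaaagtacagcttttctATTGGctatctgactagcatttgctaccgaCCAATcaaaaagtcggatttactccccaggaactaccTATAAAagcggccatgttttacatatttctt
H2BC9, chr6:26251474-26251613, plus strand: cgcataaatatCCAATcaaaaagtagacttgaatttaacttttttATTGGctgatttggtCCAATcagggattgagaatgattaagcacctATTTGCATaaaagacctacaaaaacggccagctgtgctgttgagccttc
H4C11, chr6:27823952-27824091, plus strand: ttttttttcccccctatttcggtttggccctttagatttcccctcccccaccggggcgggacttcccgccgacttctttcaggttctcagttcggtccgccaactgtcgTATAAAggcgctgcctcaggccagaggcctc

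The TATAAA matches of H2AC6 and H4C11 both began 31 bases before the start. The octamer of H2BC9 began 49 bases before the start on the coding strand, whereas that of H2AC6 lay on the reverse strand, 130 bases before the start. Over the 250 bases before the start, CCAAT was found in 35 of the 40 histone promoters (87.5%) and in 32% of all 35116 promoters listed, TATAAA in 27 (67.5%) against 10.7%, and the octamer in 16 (40%) against 1.63%. All octamer matches lay in H2A and H2B promoters, 6 of 8 and 10 of 13. These windows are not all separate DNA. At 4 places an H2A and an H2B gene start on opposite strands 194 to 246 bases apart, so their windows overlap. A site there can count for both genes: the octamer of H2AC6 is also the one counted for H2BC4. No histone promoter held overlapping matches to different motifs. The octamer was present in 5 of the 6 H2B promoters whose genes fell in a derivative and in 5 of the 7 whose genes did not, so these letters alone did not separate the H2B genes that fell from the rest.

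In KMS-11/Cfz cells, 12 of the 42 histone genes were lower than in KMS-11 cells and 0 were higher. In KMS-34/Cfz cells, 8 were lower than in KMS-34 cells and 0 were higher. A gene was called where limma's two-sided p was under 0.05 after Benjamini-Hochberg adjustment over the 19775 genes, and log2 changes are differences of group means, with 3 arrays a group. Among all genes, 1.94% were called lower and 1.63% higher in KMS-11/Cfz, and 4.69% were called lower and 5.4% higher in KMS-34/Cfz. At an unadjusted p under 0.05, 1 histone gene was higher in KMS-11/Cfz (H3C11) and 0 were higher in KMS-34/Cfz. The median log2 change of the 42 genes was −0.09 in KMS-11/Cfz cells and −0.13 in KMS-34/Cfz, beside 0.00 and −0.01 for all genes. Over the 33 genes left without probe sets that may match several transcripts, the medians were −0.020 and −0.12. All 3 resistant arrays lay below all 3 parental arrays for 18 of the 42 histone genes in KMS-11 (13.7% of all genes) and for 11 in KMS-34 (10.5% of all genes). Without replicate 1 of KMS-34/Cfz, the same 8 genes were lower in that line, the median was −0.10, and H3C2 passed the threshold as higher (log2 change 0.33, adjusted p = 0.029), where 5.08% of all genes were lower and 8.62% higher. In bulk RNA, fewer cells in S phase and less histone mRNA per cell cannot be told apart.

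**Figure D1:**
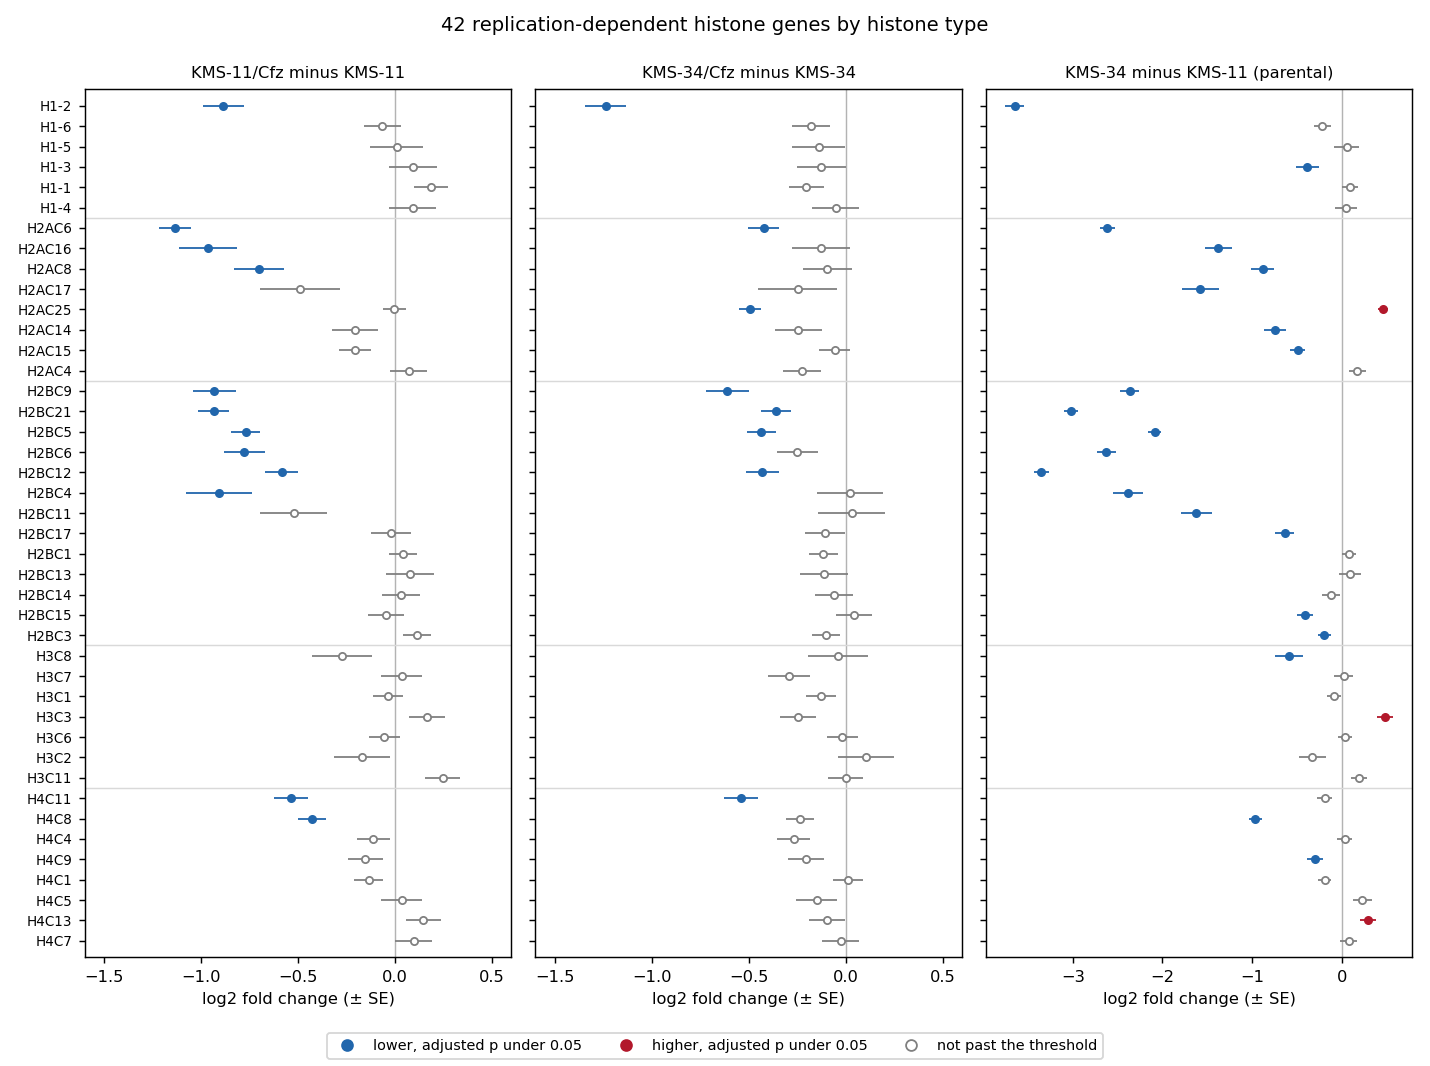
Log2 change with its standard error for each of the 42 histone genes, grouped by type (H1, H2A, H2B, H3 and H4 from top to bottom), for KMS-11/Cfz minus KMS-11, KMS-34/Cfz minus KMS-34 and parental KMS-34 minus parental KMS-11. Filled blue points are genes called lower (12, 8 and 21), filled red points genes called higher (0, 0 and 3), and the third panel has a wider axis than the first and second.

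The genes that fell were counted by histone type. Of the H2B genes, 6 of 13 fell in KMS-11/Cfz cells and 4 in KMS-34/Cfz, and of the H2A genes, 3 of 8 and 2. H4 contributed 2 of 8 and 1, and H1 contributed 1 of 6 in each line. None of the 7 H3 genes was called in either line by limma, where at an unadjusted p under 0.05 the counts were 1 (H3C11, higher) in KMS-11/Cfz and 2 (both lower) in KMS-34/Cfz. Median log2 changes in KMS-11/Cfz were 0.05 for H1, −0.35 for H2A, −0.52 for H2B, −0.04 for H3 and −0.12 for H4. The H1 median ranged from −0.028 (without KMS-11 replicate 3) to 0.11 (without KMS-11 replicate 1) when 1 array was left out. The corresponding medians in KMS-34/Cfz were −0.16, −0.23, −0.11, −0.04 and −0.18. The H2B median in KMS-11/Cfz lies between genes that fell and genes near 0, and it became −0.02 when the 4 H2B genes whose probe sets may match several transcripts were left out.

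Both derivatives shared 7 of the genes that fell: H1-2, H2AC6, H2BC5, H2BC9, H2BC12, H2BC21 and H4C11. They made up 58.3% of the 12 that fell in KMS-11/Cfz cells and 87.5% of the 8 that fell in KMS-34/Cfz. The 2 comparisons use different arrays but share the fit's estimate of each gene's spread, so their calls are not independent. Across the 42 genes the log2 changes of both lines had a Pearson r of 0.466 and a Spearman rho of 0.329, and across all genes 0.0434 and 0.0152. These correlations are over genes, which are not independent replicates, and near-identical histone genes may share signal. Changes were negative in both lines for 22 of the 42 genes and positive in both for 0, beside 5173 and 4656 of all 19775 genes. How many of all genes were called lower in both lines was not counted. In the mean of both contrasts, 13 histone genes were lower and 0 were higher (0 also at an unadjusted p under 0.05), beside 3.86% and 3.99% of all genes.

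H1-2, which encodes the linker histone H1.2, was the only H1 gene called in the resistance contrasts. Its values were 2.30, 2.22 and 2.17 in KMS-11 and 1.38, 1.33 and 1.33 in KMS-11/Cfz. In KMS-34 they were −1.45, −1.38 and −1.42, and in KMS-34/Cfz −2.96, −2.61 and −2.40. Every resistant array lay below every parental array of its line, and the array of KMS-34/Cfz that stands apart was the lowest. The log2 change was −0.89 ± 0.11 (SE) in KMS-11/Cfz (1.85-fold lower, adjusted p = 0.00032) and −1.24 ± 0.11 in KMS-34/Cfz (2.36-fold lower, adjusted p = 7.7e-06). Without that array the fall in KMS-34/Cfz was −1.09. The other H1 genes did not pass the threshold, with log2 changes from −0.06 to 0.19 in KMS-11/Cfz cells and from −0.20 to −0.05 in KMS-34/Cfz. They include H1-6, a testis form.

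H2AC6, a canonical H2A gene, had values of 1.38, 1.39 and 1.25 in KMS-11 and 0.20, 0.20 and 0.22 in KMS-11/Cfz. The groups lay more than a log2 unit apart, and the 3 resistant arrays were almost equal. In KMS-34 the values were −1.25, −1.19 and −1.39, and in KMS-34/Cfz −1.87, −1.64 and −1.58, again without overlap. The log2 change was −1.14 ± 0.08 in KMS-11/Cfz (2.20-fold lower, adjusted p = 4.7e-06), the largest among the 42 genes in that line. It was −0.42 ± 0.08 in KMS-34/Cfz (1.34-fold lower, adjusted p = 0.0044), and the difference between the lines, 0.71 ± 0.11, had an adjusted p of 0.0022.

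H2AC16 and H2AC8 fell in KMS-11/Cfz alone among the called results. H2AC16 had values of 1.48, 1.26 and 1.53 in KMS-11 and 0.34, 0.88 and 0.15 in KMS-11/Cfz, a log2 change of −0.97 ± 0.15 (adjusted p = 0.0023). It rests on 1 probe set. Probe sets that name 6 H2A genes at once, H2AC16 among them, did not fall in KMS-11/Cfz. They were at −0.07 and 0.13 there in limma's fit on all probe sets (adjusted p = 0.94 and 0.65). In KMS-34 the values of H2AC16 were −0.07, 0.09 and 0.11, and in KMS-34/Cfz −0.01, −0.25 and 0.01. These groups overlapped, with a log2 change of −0.13 ± 0.15 (adjusted p = 0.74). The difference between the lines, 0.84 ± 0.21, had an adjusted p of 0.032. It was 0.057 to 0.085 when a single array was left out, for replicates 1 and 3 of KMS-11, KMS-11/Cfz and KMS-34 and replicate 3 of KMS-34/Cfz. After cyclic loess scaling it was 0.36 (difference 0.41). Here and below, that scaling was fitted to centred values that hold no intensity level, so it cannot decide whether a call depends on intensity. H2AC8 fell by 0.70 on a log2 scale in KMS-11/Cfz (SE 0.13, adjusted p = 0.0074) and its log2 change was −0.09 in KMS-34/Cfz (adjusted p = 0.78). Its difference between the lines did not pass the threshold (0.61 ± 0.18, adjusted p = 0.066).

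H2AC25 was the only gene called in KMS-34/Cfz and not in KMS-11/Cfz. It is an H2A gene on chromosome 1, away from the large cluster of chromosome 6. Its values were 0.45, 0.41 and 0.48 in KMS-34 and −0.06, −0.01 and −0.07 in KMS-34/Cfz, whereas in KMS-11 they were −0.03, 0.03 and −0.04 and in KMS-11/Cfz −0.10, 0.02 and 0.03. The 3 KMS-34 arrays stood above all other arrays. The log2 change was −0.49 ± 0.06 in KMS-34/Cfz (adjusted p = 0.00013) and −0.00 ± 0.06 in KMS-11/Cfz (adjusted p = 0.99), and the difference of −0.49 ± 0.08 had an adjusted p of 0.0029. The gene has 2 probe sets that disagreed: the log2 change in KMS-34/Cfz was −0.87 on the probe set specific to it (adjusted p over all probe sets = 0.00012) and −0.11 on the set that may match other transcripts (adjusted p = 0.6). In the fit on single probe sets, 1.02% of all probe sets were called lower in KMS-11/Cfz cells and 3.18% in KMS-34/Cfz.

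Of the H2B genes, H2BC9 had the largest fall in KMS-34/Cfz. Its values were 1.44, 1.37 and 1.36 in KMS-11 against 0.45, 0.55 and 0.37 in KMS-11/Cfz. In KMS-34 they were −1.05, −0.74 and −1.14 against −1.82, −1.47 and −1.48 in KMS-34/Cfz, and neither pair of groups overlapped. The log2 change was −0.93 ± 0.11 in KMS-11/Cfz (1.91-fold lower, adjusted p = 0.00031) and −0.61 ± 0.11 in KMS-34/Cfz (1.53-fold lower, adjusted p = 0.003).

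H2BC21, an H2B gene on chromosome 1, had values of 1.21, 1.47 and 1.49 in KMS-11 and 0.44, 0.40 and 0.53 in KMS-11/Cfz. In KMS-34 the values were −1.61, −1.64 and −1.64, and in KMS-34/Cfz −2.07, −2.00 and −1.90. The groups of each line were separate. The log2 change was −0.94 ± 0.08 (adjusted p = 1.7e-05) and −0.36 ± 0.08 (adjusted p = 0.0095), and the lines differed by 0.58 ± 0.11 (adjusted p = 0.007). The fall in KMS-34/Cfz and the difference between the lines no longer passed after cyclic loess scaling (adjusted p = 0.11 and 0.31).

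H2BC5 had values of 1.04, 1.02 and 0.88 in KMS-11 and 0.20, 0.21 and 0.22 in KMS-11/Cfz. In KMS-34 they were −1.07, −1.05 and −1.19, and in KMS-34/Cfz −1.66, −1.55 and −1.40, so that resistant and parental arrays were separate in both lines. It fell by 0.77 on a log2 scale in KMS-11/Cfz (SE 0.07, adjusted p = 6.2e-05) and by 0.43 in KMS-34/Cfz (SE 0.07, adjusted p = 0.0022). Of its 2 probe sets, both fell in KMS-11/Cfz (−0.81 and −0.73), and in KMS-34/Cfz the first fell by 0.53 (adjusted p = 0.00056) while the second, at −0.34, did not pass (adjusted p = 0.13).

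H2BC12 had values of 1.07, 0.97 and 0.90 in KMS-11 and 0.40, 0.39 and 0.40 in KMS-11/Cfz. In KMS-34 they were −2.46, −2.21 and −2.45, and in KMS-34/Cfz −2.89, −2.88 and −2.64. Groups did not overlap in either line, and the log2 change was −0.58 ± 0.09 in KMS-11/Cfz (adjusted p = 0.0015) and −0.43 ± 0.09 in KMS-34/Cfz (adjusted p = 0.0056). Cyclic loess scaling ended both calls (adjusted p = 0.63 and 0.48) and turned the direction in KMS-11/Cfz to 0.52. As it was fitted to centred values, it does not decide whether the gene fell. The fall in KMS-34/Cfz had an adjusted p of 0.052 when each line was fitted alone.

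H2BC4 and H2BC6 fell in KMS-11/Cfz cells and were not called in KMS-34/Cfz. H2BC4 rests on 1 probe set, which the study's supplement lists under a hypothetical gene. The set that the supplement lists for H2BC4, by its older name, is mapped here to 5 H2B genes. In limma's fit on all probe sets it was at −1.03 in KMS-11/Cfz (adjusted p = 0.0077) and 0.18 in KMS-34/Cfz (adjusted p = 0.71). H2BC4 had values of 1.32, 1.42 and 0.82 in KMS-11 and 0.36, 0.22 and 0.25 in KMS-11/Cfz, a log2 change of −0.91 ± 0.17 (1.88-fold lower, adjusted p = 0.0088). Its values in KMS-34 were −1.29, −1.52 and −0.78, and those in KMS-34/Cfz, −1.18, −1.26 and −1.09, lay within that range, with a log2 change of 0.02 ± 0.17 (adjusted p = 0.97). The difference between the lines, 0.93 ± 0.24, was the largest of the 42 genes (adjusted p = 0.035), but with a single array left out its adjusted p was 0.057 to 0.092, except without KMS-11 replicate 3, KMS-34 replicate 3 or KMS-34/Cfz replicate 1, where it still passed. H2BC6 fell by 0.78 in KMS-11/Cfz (SE 0.11, adjusted p = 0.00087), from 1.38, 1.29 and 1.25 in KMS-11 to 0.46, 0.58 and 0.55. Its log2 change in KMS-34/Cfz was −0.25 ± 0.11 (adjusted p = 0.18), with 1 resistant array among the parental ones. The other 7 H2B genes did not pass the threshold in either line. They ranged from −0.52 (H2BC11, adjusted p = 0.15) to 0.11 in KMS-11/Cfz cells and from −0.11 to 0.04 in KMS-34/Cfz, and include H2BC1, a testis form.

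**Figure D2:**
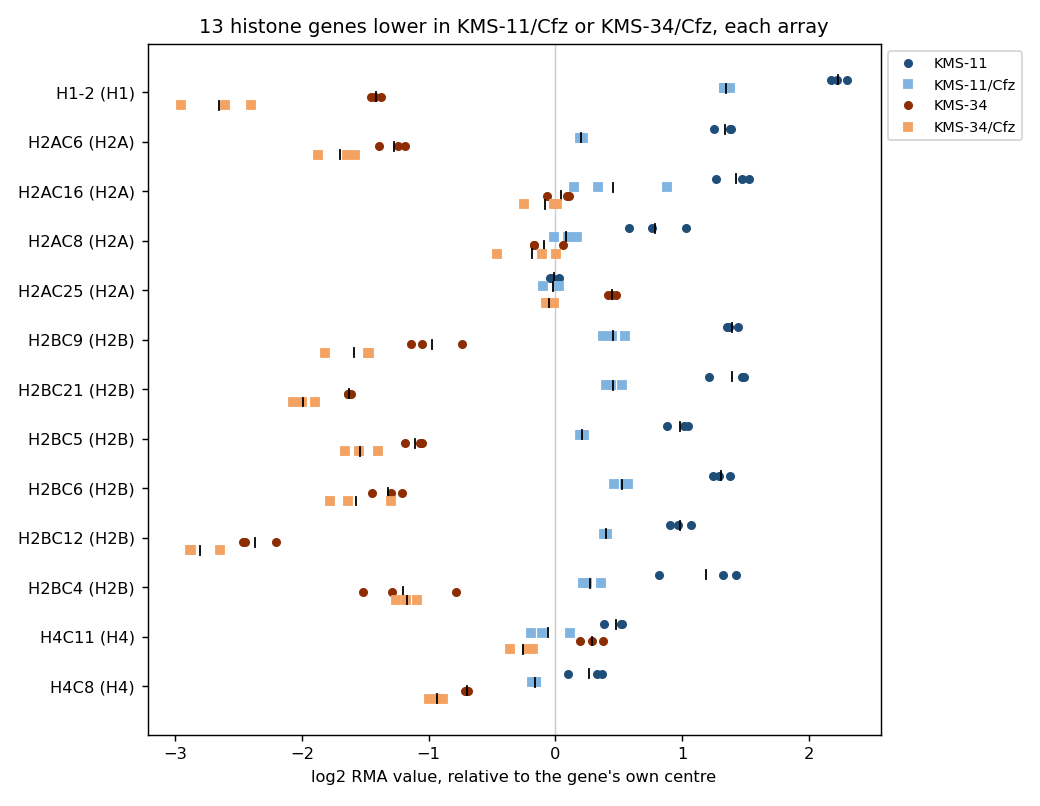
Values of the 13 histone genes called lower in KMS-11/Cfz or KMS-34/Cfz on each of the 12 arrays, as log2 intensity relative to each gene's own centre; circles are parental and squares resistant arrays, and black bars are group means. For H1-2, H2AC6, H4C11, H4C8 and the H2B genes other than H2BC4 and H2BC6, the 3 squares of each line lie to the left of its 3 circles.

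H4C11 changed by nearly the same amount in both lines. Its values were 0.52, 0.52 and 0.39 in KMS-11 and −0.10, 0.12 and −0.19 in KMS-11/Cfz. In KMS-34 they were 0.20, 0.29 and 0.37, and in KMS-34/Cfz −0.36, −0.18 and −0.22. Resistant and parental arrays were separate, with a log2 change of −0.54 ± 0.09 in each line (adjusted p = 0.003 and 0.0013) and a difference between the lines of −0.00 ± 0.12. H4C8 fell by 0.43 in KMS-11/Cfz (SE 0.07, adjusted p = 0.0039), a call that cyclic loess scaling ended (adjusted p = 0.11). In KMS-34/Cfz its log2 change was −0.24 ± 0.07, just short of the threshold (adjusted p = 0.052), although its 3 resistant arrays (−1.00, −0.92 and −0.89) lay below the parental ones (−0.72, −0.70 and −0.69). The other 6 H4 genes ranged from −0.15 to 0.14 in KMS-11/Cfz cells and from −0.27 to 0.01 in KMS-34/Cfz. Of the 6 probe sets shared between H4 genes, 5 name the same 14 genes, which include H4C11 and H4C8 but not H4C7. None of the 6 was called in either line in limma's fit on all probe sets. Their log2 changes ranged from −0.35 to 0.02 in KMS-11/Cfz and from −0.40 to −0.05 in KMS-34/Cfz.

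The H3 genes had log2 changes from −0.27 (H3C8) to 0.24 (H3C11) in KMS-11/Cfz cells and from −0.29 (H3C7) to 0.11 (H3C2) in KMS-34/Cfz. H3C7 had values of −0.00, 0.23 and 0.40 in KMS-34 and −0.09, −0.09 and −0.08 in KMS-34/Cfz. Its arrays did not overlap, but the change of −0.29 ± 0.11 did not pass the threshold (adjusted p = 0.11).

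Of the 42 genes, 9 are measured only by probe sets of the kinds that may match several transcripts, and these include 6 of the 12 genes that fell in KMS-11/Cfz (H2AC6, H2BC5, H2BC6, H2BC9, H2BC21 and H4C11) and 5 of the 8 that fell in KMS-34/Cfz. Their signal may hold RNA of near-identical genes. With such probe sets left out for every gene, 33 histone genes remained, of which 6 were lower in KMS-11/Cfz cells and 4 in KMS-34/Cfz. A further 20 probe sets name several histone genes at once and were left out of the gene values. Of these, 7 were lower in KMS-11/Cfz cells and 4 in KMS-34/Cfz, and 0 were higher in either in limma's fit on all probe sets, beside 0 and 1 higher at an unadjusted p under 0.05. Of the 3 that name only H2AC18 and H2AC19, copies of a canonical H2A gene, 2 fell in both lines, with log2 changes of −0.86 and −1.00 in KMS-11/Cfz (adjusted p = 0.0006 and 6.2e-06) and −1.21 and −1.06 in KMS-34/Cfz (adjusted p = 1.3e-05 and 1.2e-06). The third fell in KMS-34/Cfz (−0.43, adjusted p = 0.025) and was at −0.20 in KMS-11/Cfz (adjusted p = 0.58). Of 2 sets that name the same 10 H3 genes, 1 fell in KMS-11/Cfz (−0.56, adjusted p = 0.0027). The other was at −0.13 there (adjusted p = 0.9). A further set, which names these H3 genes and H2AC7, also fell in KMS-11/Cfz (−0.46, adjusted p = 0.04). It was at 0.10 in KMS-34/Cfz (adjusted p = 0.73). No H3 gene measured alone was called.

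Whether the resistance contrast differed between the lines was tested as an interaction. The contrast of KMS-34 minus that of KMS-11 was called higher for 4 histone genes, H2AC6, H2AC16, H2BC4 and H2BC21, which had the smaller change in KMS-34/Cfz, and lower for 1, H2AC25. All 4 were also lower in parental KMS-34 than in parental KMS-11. The values hold no level, and whether a weaker signal made their change smaller was not tested. Of all genes, 3.7% were called higher and 2.74% lower. The median interaction over the 42 genes was −0.07, beside −0.02 for all genes.

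The parental lines were then compared with each other. In KMS-34 cells 21 of the 42 histone genes were lower than in KMS-11 cells and 3 were higher (H2AC25, H3C3 and H4C13), where 20.5% of all genes were lower and 21.6% higher. All 3 KMS-34 arrays lay below all 3 KMS-11 arrays for 23 of the 42 genes (24% of all genes), and 17.1% of all probe sets were called lower in the fit on single probe sets. The lower genes were 10 of 13 of type H2B, 6 of 8 of H2A, 2 of 6 of H1, 2 of 8 of H4 and 1 of 7 of H3 (H3C8, −0.59). The median log2 difference was −0.26 over all 42, −0.81 for H2A and −1.63 for H2B, and between −0.08 and 0.02 for H1, H3 and H4. The H2B median was −0.41 without the probe sets that may match several transcripts.

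The largest difference was that of H1-2, 12.6-fold lower in KMS-34 (log2 difference −3.65 ± 0.11, adjusted p = 4.1e-12). H2BC12 was 10.2-fold lower (−3.35 ± 0.09, adjusted p = 1.3e-12) and H2BC21 8.11-fold lower (−3.02 ± 0.08, adjusted p = 1.5e-12). H2BC6, H2AC6, H2BC4, H2BC9 and H2BC5 followed, between 6.17-fold and 4.25-fold lower. Beyond the 13 genes that fell in a derivative, H2BC11 was 3.08-fold and H2AC17 2.99-fold lower. H2AC25 was higher in KMS-34 (0.46 ± 0.06, adjusted p = 1.5e-05), as were H3C3 (0.48 ± 0.09, adjusted p = 0.00062) and H4C13 (0.29 ± 0.09, adjusted p = 0.017, and 0.059 to 0.078 without KMS-11 replicate 2 or 3 or KMS-34 replicate 3). H4C11, which fell by the same amount in both derivatives, was not called between the parental lines (−0.19 ± 0.09, adjusted p = 0.099). This comparison shares its parental arrays with the resistance contrasts, so how the contrasts resemble each other is not an independent observation and the values are only set side by side. For H1-2 they were −0.89 (KMS-11/Cfz), −1.24 (KMS-34/Cfz) and −3.65 (parental), for H2AC6 −1.14, −0.42 and −2.62, and for H2AC25 −0.00, −0.49 and 0.46.

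Of the 42 genes, 40 lie on chromosome 6 and 2, H2AC25 and H2BC21, on chromosome 1. In the order of the reference, the 55 histone genes of chromosome 6 form 2 blocks of 34 and 21 genes, with 25 and 15 of the measured genes. In the first block 8 fell in KMS-11/Cfz, 4 in KMS-34/Cfz and 11 were lower in parental KMS-34, and in the second 3, 2 and 9. Genes that fell stood beside genes that did not: in the first block H2BC4 and H2AC6 fell in KMS-11/Cfz (−0.91 and −1.14), the next gene, H1-4, was at 0.09, and after it H2BC5 and H2BC6 fell (−0.77 and −0.78). At 4 places a pair of the measured H2A and H2B genes point away from each other from starts less than 500 bases apart. H2BC4 and H2AC6, with 246 bases between their starts, both fell in KMS-11/Cfz, whereas none of the genes of the pairs H2AC14 and H2BC14, H2AC15 and H2BC15, and H2AC17 and H2BC17 was called in either derivative by limma (at an unadjusted p under 0.05, 2 were lower in KMS-11/Cfz and 0 differed in KMS-34/Cfz). In the last of these pairs the log2 changes in KMS-11/Cfz were −0.49 for H2AC17 (adjusted p = 0.29) and −0.02 for H2BC17, and between the parental lines −1.58 and −0.64.

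**Figure D3:**
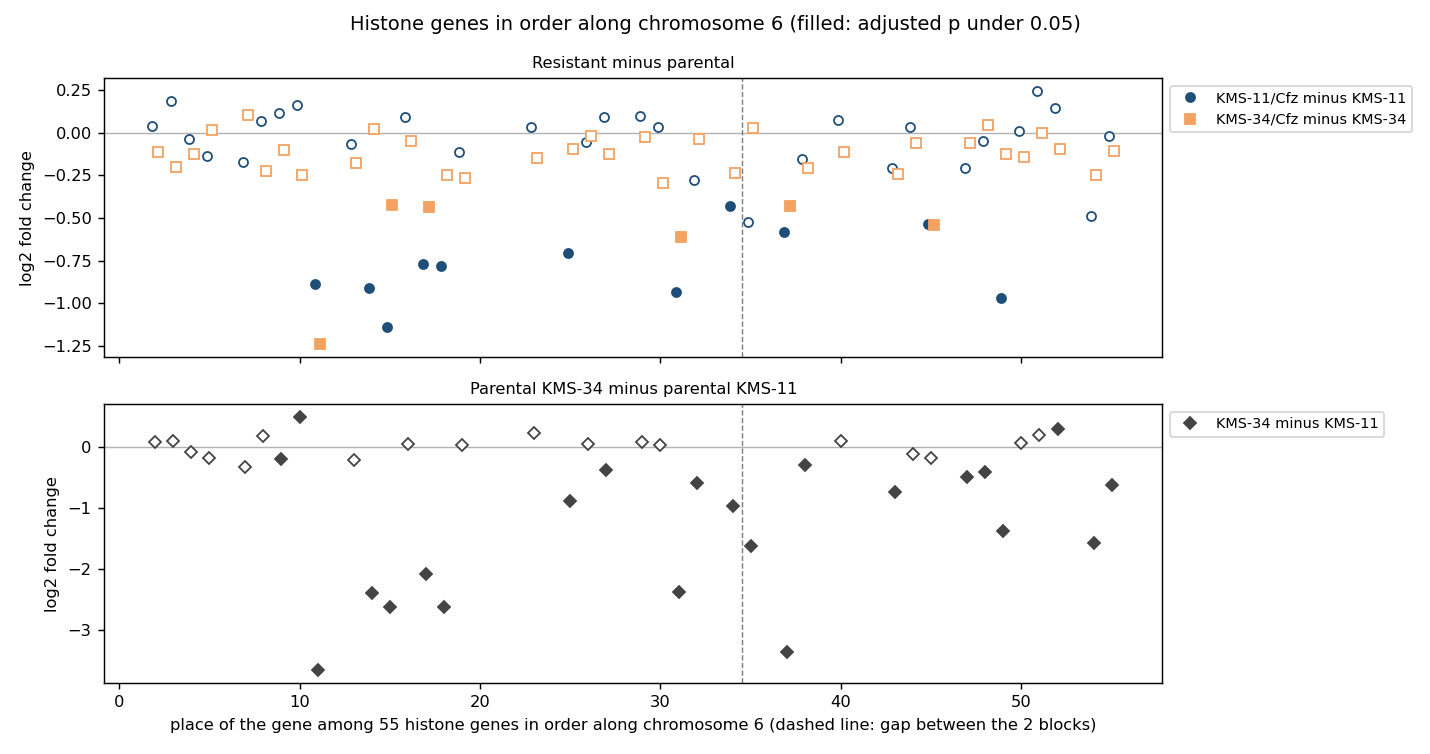
Log2 change of the 40 measured histone genes of chromosome 6 against their place in the order of 55 histone genes, for both resistance contrasts (upper panel) and for parental KMS-34 minus parental KMS-11 (lower panel, with a wider axis). Filled points are called genes and the dashed line is the gap between the blocks of 34 and 21 genes; called genes occur in both blocks, with genes near 0 among them.

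Other genes of histone supply were counted on 4 lists. Of their 85 genes, 79 were measured. In KMS-11/Cfz 2 were higher and 1 was lower, where 1.63% of all genes were higher and 1.94% lower. In KMS-34/Cfz 9 were higher and 3 were lower, where 5.4% of all genes were higher and 4.69% lower. Among the 9 measured histones listed as replication-independent, which include H2AX and CENPA, the median log2 change was −0.00 in KMS-11/Cfz cells and 0.02 in KMS-34/Cfz. The linker histone gene H1-10 fell in KMS-11/Cfz (−0.36, adjusted p = 0.018), a call that ended without replicate 1 or 3 of KMS-11/Cfz or of KMS-11 (adjusted p = 0.076 to 0.098) and after cyclic loess scaling (0.78). H2AZ2, which encodes a variant H2A, rose in KMS-34/Cfz (0.37, adjusted p = 0.0011). With each line fitted alone, 4 of the 12 calls in KMS-34/Cfz held, those of H2AZ2, CCNE2, MCM7 and CDT1.

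Among the 22 measured genes of histone mRNA transcription and processing, ERI1, an exonuclease that acts on the histone stem-loop, rose in KMS-11/Cfz (0.32, adjusted p = 0.036). That call ended without any single array of KMS-11/Cfz or KMS-11 (adjusted p = 0.053 to 0.16). In KMS-34/Cfz, CASP8AP2, which is needed for histone transcription and processing, rose by 0.34 (adjusted p = 0.0073) and the cyclin gene CCNE2 by 0.51 (adjusted p = 0.0037), while NCBP2, a subunit of the nuclear cap-binding complex, fell (−0.34, adjusted p = 0.02, and 0.078 without KMS-34 replicate 2). SLBP was at 0.24 ± 0.06 in KMS-11/Cfz (adjusted p = 0.055) and 0.17 ± 0.06 in KMS-34/Cfz (adjusted p = 0.1), and passed the threshold in the mean of both (0.20, adjusted p = 0.011). NPAT, the coactivator of histone gene transcription, was at −0.01 and 0.03 (adjusted p = 0.98 and 0.87).

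Of the 21 measured histone chaperones, ASF1A, which hands H3 and H4 to the assembly factors, rose in KMS-11/Cfz (0.36, adjusted p = 0.011), which became 0.061 without KMS-11/Cfz replicate 1 and 0.06 without KMS-11 replicate 3. ASF1B (0.31, adjusted p = 0.011) and RBBP4 (0.36, adjusted p = 0.0051) rose in KMS-34/Cfz and ANP32E, a chaperone of H2A.Z, fell (−0.39, adjusted p = 0.0049). None of the 27 measured S phase genes was called in KMS-11/Cfz by limma (6 were higher and 3 lower at an unadjusted p under 0.05), with changes from −0.26 to 0.28 and a median of 0.06. In KMS-34/Cfz 4 rose and 1 fell, beside 5.4% and 4.69% of all genes, and the median of the list was 0.11. Those that rose were MCM6 (0.29, adjusted p = 0.018) and MCM7 (0.36, adjusted p = 0.0018), subunits of the replicative helicase, CDT1 (0.36, adjusted p = 0.0013), which loads it, and GINS3 (0.24, adjusted p = 0.036), which activates it. The cyclin gene CCNA2 fell (−0.24, adjusted p = 0.03). MCM6 no longer passed without replicate 2 of KMS-34/Cfz or replicate 3 of KMS-34 (adjusted p = 0.081 and 0.077), CCNA2 without replicate 1 or 2 of KMS-34/Cfz or replicate 2 of KMS-34 (0.058 to 0.1), and GINS3 without any of 9 of the 12 arrays (0.052 to 0.13), all but KMS-34/Cfz replicate 1 and KMS-11 replicates 2 and 3.

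**Figure D4:**
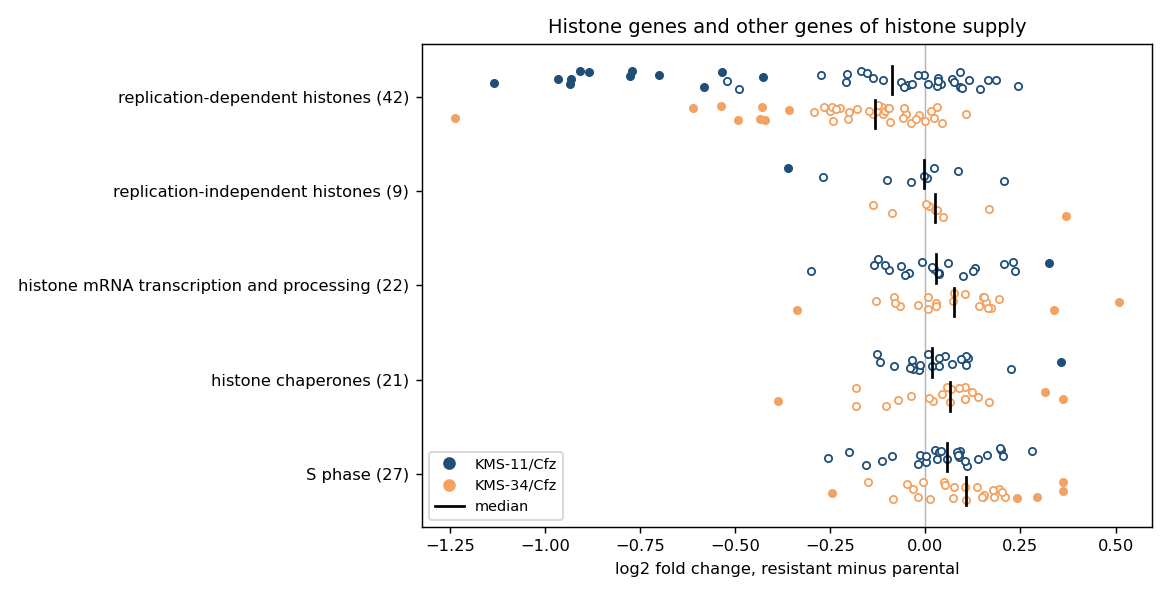
Log2 change, resistant minus parental, of the 42 replication-dependent histone genes and of the 4 lists of other genes of histone supply, in KMS-11/Cfz (blue) and KMS-34/Cfz (orange). Each point is a gene, filled where the adjusted p was under 0.05, and black bars are medians, which lie below 0 for the replication-dependent histones in both lines and between −0.00 and 0.11 for the 4 lists.

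Of 19 measured markers of T and NK cells, monocytes, red cells and stroma, 1 was lower in KMS-11/Cfz (CD7, −0.63, adjusted p = 0.0015), 2 were lower in KMS-34/Cfz (CD14, −0.32, and HBB, −0.29, of which CD14 no longer passed without replicate 1 or 2 of KMS-34/Cfz or replicate 2 or 3 of KMS-34, adjusted p = 0.051 to 0.13, and HBB without replicate 1 of KMS-34, 0.063) and 0 were higher in either (at an unadjusted p under 0.05, 1 was higher in KMS-11/Cfz, against 0 in KMS-34/Cfz). The mean of the 6 T and NK markers was 0.08 to 0.09 in KMS-11/Cfz cells and 0.18 to 0.22 in KMS-11, and −0.14 to 0.05 in KMS-34/Cfz and −0.11 to 0.02 in KMS-34. CD7 had the largest change of the 6 in KMS-11/Cfz, and their median log2 change there was 0.0009. Of the 8 plasma cell markers, 2 were lower in KMS-11/Cfz cells and 3 in KMS-34/Cfz, beside 1.94% and 4.69% of all genes. None was called higher in either line, but CD38 rose by 0.44 and 0.34 (adjusted p = 0.08 and 0.11). The mean of both contrasts had CD38 higher (0.39, adjusted p = 0.016) and 4 markers lower. Fitting each line alone ended the KMS-34/Cfz falls of IRF4 (adjusted p = 0.1) and PRDM1 (0.083). PRDM1 also lost its call with the probe set of the largest variance (0.52), while SLAMF7 kept its calls. Of the 2 genes of the t(4;14) translocation, NSD2 was lower in KMS-34/Cfz (adjusted p = 0.015). Its adjusted p was 0.052 without KMS-34 replicate 2 and 0.12 with each line fitted alone. The part of these in the histone results was not tested.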

How the data were processed

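Total RNA of 12 samples (4 groups of 3) was hybridized as biotinylated cRNA to Affymetrix U133 Plus 2.0 arrays for the human genome. How the cRNA was primed, which bears on mRNAs without a poly(A) tail, is not given in the sources used here. The deposited table holds log2 values that the authors normalized with RMA (version not stated in the submitters' processing notes) and that are set relative to a centre for each probe set, from −7.75 to 8.64 over 54613 probe sets. It holds 0 control probe sets and no level, so no filter on dim probe sets was possible, and the number of arrays limits the precision.

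Of the probe sets, 41091 name 1 gene (41037 matched to RefSeq, GRCh38.p14), 1801 several and 11721 none. All probe sets that name a gene alone were averaged, giving 19775 genes. Of the 42 histone genes, 36 have 1 probe set and 6 have 2. All 12 arrays entered 1 fit with a mean for each group in limma 3.58.1 (R 4.3.3; lmFit, contrasts.fit and eBayes, no block), with Benjamini-Hochberg adjustment over all genes, or all probe sets, and a threshold of 0.05. Tables and promoter searches used Python 3.11.15 and pandas 2.3.3. On simulated data of 19775 genes, 70% of 100 changes of 0.5 and 98% of 100 changes of 1 (log2) were recovered for KMS-11/Cfz, with 8 false calls, and 72% and 100% for KMS-34/Cfz, with 16. The simulated noise was independent between arrays and had 1 spread per gene for all 4 groups. The lower agreement of KMS-34/Cfz replicate 1 was therefore not modelled, and these shares do not describe the lines separately.

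The genes and lists were chosen with earlier results of these data known. Genes were named by rule: up to 8 called per contrast and direction with the largest change, the largest of each histone type, those called in both derivatives or in the interaction, up to 4 per list in each resistance contrast, and SLBP, NPAT and CASP8AP2. The planned rule also covered list genes in the mean, interaction and parental contrasts, of which only some are named here. H2AC8, H2AC17, H2BC11, H3C8, H4C8, genes at the ends of ranges, GINS3, marker genes and genes set beside their neighbours were named after their values were seen. Alternatives covered the replicate number as a block, separate fits, array scaling, the variance model, the choice of probe sets, a variance filter, the threshold and each array left out.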

Additional observations from a re-analysis of the deposited data

Results flagged for a closer look

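The change between resistant and parental cells differed between the lines for 5 histone genes by the interaction test of limma (KMS-34 contrast minus KMS-11 contrast, log2). H2AC16 (0.84), H2AC6 (0.71), H2BC21 (0.58) and H2BC4 (0.93) fell less in KMS-34/Cfz or were not called there. They were also lower in parental KMS-34 than in parental KMS-11, and the part of a weaker signal was not tested. H2AC25 (−0.49) fell in KMS-34/Cfz and was not called in KMS-11/Cfz. H2AC6 and H2AC25 kept the call under every alternative run for them (adjusted p up to 0.0088 and 0.013), H2BC21 under every one but cyclic loess scaling (0.31). H2AC16 lost it under 9 alternatives and H2BC4 under 11 (adjusted p up to 0.36 and 0.092), most of them the removal of a single array.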

How the results depend on the processing

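The values hold differences and no level, probe sets may match near-identical genes, and each group has 3 arrays. Most counts of lower genes moved little: leaving out 1 array gave 12 to 13 lower histone genes in KMS-11/Cfz, 8 to 10 in KMS-34/Cfz, 12 to 14 in the mean of both and 18 to 23 between the parental lines. Without probe sets that may match several transcripts, which leaves 33 genes, lower genes numbered 6, 4, 7 and 13, the interaction was higher for 2, the median over all was −0.020 in KMS-11/Cfz, against −0.12 in KMS-34/Cfz, the parental medians −0.12 over all, −0.69 for H2A, −0.41 for H2B and 0.032 for H4, the H2B and H3 medians in KMS-11/Cfz −0.020 and 0.033, the H3 median in KMS-34/Cfz −0.13, and 1 gene of the pathway lists was called in KMS-11/Cfz. Cyclic loess, fitted to centred values that hold no level, gave an H2B median of −0.059 in KMS-11/Cfz, an interaction lower for 2 genes and 8 pathway genes called in KMS-11/Cfz, and turned H2BC12 in KMS-11/Cfz to 0.52. Array weights rest on a fit that did not converge and gave KMS-34/Cfz replicate 2 a weight of 19.4 against 0.168 for replicate 1: 1 gene was higher in each derivative, 15 were lower in KMS-34/Cfz, the interaction was lower for 5 and higher for 11, the H2A and H3 medians in KMS-34/Cfz were −0.16 and −0.12, and 15 and 32 pathway genes were called. With each line fitted alone, 1 gene was higher in KMS-11/Cfz and 13 and 4 pathway genes were called. With the probe set of the largest variance, the H3 medians were 0.017 in KMS-11/Cfz and −0.045 between the parental lines. Keeping only the more variable genes gave 6 pathway genes in KMS-11/Cfz, and an adjusted p under 0.01 gave 0 and 7 pathway genes and an interaction higher for 2. Medians were not taken under the variance filter, which selects genes that move, or in the fit on probe sets. Leaving out 1 array gave ranges of 0 to 12 (KMS-11/Cfz) and 9 to 22 (the KMS-34 derivative) pathway genes called, both highest without KMS-34/Cfz replicate 1, and the first at 0 without KMS-11/Cfz replicate 1 or KMS-11 replicate 3, at 1 without KMS-11/Cfz replicate 3 or parental KMS-11 replicate 1 and at 6 without KMS-34/Cfz replicate 3. Higher genes in KMS-34/Cfz ranged from 0 to 1 (H3C2, without KMS-34/Cfz replicate 1). The interaction was lower for 1 to 2 genes (2 without KMS-34/Cfz replicate 2 or 3 or parental KMS-34 replicate 3) and higher for 2 to 9 (9 without KMS-34/Cfz replicate 1, 2 without KMS-11/Cfz replicate 1 or 3, KMS-34/Cfz replicate 3, KMS-11 replicate 1 or KMS-34 replicate 1). Medians ranged from −0.028 to 0.11 for H1 and −0.066 to 0.012 for H3 in KMS-11/Cfz, from −0.24 to −0.068 for H1, −0.28 to −0.13 for H2A, −0.18 to −0.039 for H3 and −0.26 to −0.11 for H4 in KMS-34/Cfz, and from −0.87 to −0.72 for H2A, −1.81 to −1.49 for H2B and −0.097 to 0.042 for H3 between the parental lines. The cause of these shifts was not tested.

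With the replicate number as a block, 12 histone genes were lower in KMS-11/Cfz, 8 in KMS-34/Cfz, 12 in the mean of both and 21 between the parental lines. H2BC4 no longer passed in the mean (adjusted p = 0.057, from 0.0011 to 0.1 over all alternatives, 13 of which ended the call) or the interaction (0.052), and the block changed none of the other calls of the named histone genes. Same-numbered arrays deviated together with r of −0.01, 0.13 and 0.04 in KMS-11, 0.56, 0.37 and 0.05 in KMS-34 and −0.13, 0.29 and 0.08 between the parental lines, above 0.1 for 4 of 9. The numbers were not taken as pairs because the other 5 were not above 0.1, although 6 of the 9 correlated best with their own number.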
